A study of Mus musculus with 6 samples.

Results

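Iron handling was described through 10 genes chosen by name for their known roles: transferrin receptor 1 (Tfrc), transferrin receptor 2 (Tfr2), the iron transporter DMT1 (Slc11a2), the ferrireductase Steap3, mitoferrin 1 (Slc25a37), the glycine carrier Slc25a38, the mitochondrial transporter Abcb10, the ferritin heavy chain (Fth1), ferroportin (Slc40a1) and haem oxygenase 1 (Hmox1). All 10 were measured, among 18193 genes in all, and each was represented by its probe set (a group of array probes for 1 transcript) with the highest mean over the arrays. The 6 samples came from fore and hind limbs of mice at postnatal day 3, labelled wild type, although the growth protocol speaks of GFP-labelled animals. Limbs of a litter were pooled, the skeletal tissue was digested with collagenase, and cells were sorted by flow cytometry. Of these, 3 were titled Itgav-low Tie2-positive (called Tie2-positive here) and 3 Itgav-negative Tie2-negative (called Tie2-negative). Both were titled as lacking CD45, the antigen of leukocytes, and Ter119, an antigen of red-cell precursors, while the list of stains in the protocol names no Ter119. Neither population received a treatment. The study is about marrow stroma of newborn mice.

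A cell takes up iron bound to transferrin through the transferrin receptor, frees and reduces it in the endosome with Steap3, and passes it to the cytosol through DMT1. Red-cell precursors send most of it into mitochondria, where mitoferrin 1 imports iron and haem is made. The surplus is stored in ferritin or leaves through ferroportin, the known iron exporter of vertebrate cells. Haem oxygenase 1 opens the haem ring and returns its iron, a reaction best known in macrophages that clear old red cells.

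The sequences upstream of the members were read from RefSeq (GRCm38.p6), which gave 13 promoter windows for 6 of the 10 members. No window was given for Slc11a2, Slc25a37, Slc40a1 and Hmox1, so their upstream sequences were not searched. The 250 bases before each start were searched on both strands for the GATA factor motif, AGATAA or TGATAA, and for the motif CCNCNCCCN of erythroid Krüppel-like factor, since both factors drive red-cell genes. The GATA letters stood in 2 of the 13 windows and in 16.6% of 32851 windows of all genes. The letters CCNCNCCCN stood in 10 of the 13 and in 45.8% of all windows. Also searched were TGACNNNGC, the antioxidant response element (1 of the 13 windows, that of Slc25a38, and 10.2% of all), and CCAAT (4 of the 13 and 33.8% of all). Several windows belong to the same gene and some overlap, so they are not independent, and a match of letters is a description. Shown are the windows of 2 mitochondrial genes that fell in the comparison, then that of the outermost start of Steap3, and last 30 bases around the match of Tfr2. Capitals mark matches to either motif, except that in the Tfr2 site they mark the GATA match alone.
Slc25a38: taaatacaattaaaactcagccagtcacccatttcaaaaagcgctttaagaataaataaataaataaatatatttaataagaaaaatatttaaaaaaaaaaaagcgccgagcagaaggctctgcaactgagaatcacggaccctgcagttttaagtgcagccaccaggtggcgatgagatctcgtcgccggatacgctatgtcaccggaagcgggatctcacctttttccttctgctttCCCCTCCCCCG
Abcb10: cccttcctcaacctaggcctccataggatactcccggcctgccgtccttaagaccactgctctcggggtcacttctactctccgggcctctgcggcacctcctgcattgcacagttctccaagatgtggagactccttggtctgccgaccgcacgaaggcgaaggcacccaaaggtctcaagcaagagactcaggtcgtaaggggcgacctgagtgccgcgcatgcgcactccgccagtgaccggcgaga
Steap3: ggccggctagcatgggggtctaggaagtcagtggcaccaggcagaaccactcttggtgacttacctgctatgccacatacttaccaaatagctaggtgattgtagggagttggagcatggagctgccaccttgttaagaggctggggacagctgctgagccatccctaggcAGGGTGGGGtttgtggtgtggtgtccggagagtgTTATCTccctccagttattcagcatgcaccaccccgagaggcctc
Tfr2 site: gcctgtcagggcTGATAAggggccctctag
These lie at chr9:120110132-120110381 (plus strand), chr8:123983123-123983372 (minus strand), chr1:120271081-120271330 (minus strand) and chr5:137570902-137570931 (plus strand). The Steap3 window held a match to each motif, the GATA one starting 45 bases before the start. The Tfr2 match began 61 bases before an inner start of the gene. These were the 2 windows with a GATA match, and the windows at the other starts of Steap3 and Tfr2 held none. The Slc25a38 window held CCNCNCCCN matches next to its start and no GATA match, and the Abcb10 window held neither set of letters.

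The arrays were first checked against their labels. Tek, the gene of Tie2, had log2 values of 12.06, 10.86 and 9.80 in the Tie2-positive samples, against 4.81, 4.79 and 4.90 in the Tie2-negative samples. Itgav, the gene of the other gated antigen, read 8.78, 8.60 and 9.37 in the Tie2-positive and 7.06 to 7.24 in the Tie2-negative samples, a change of 1.76 that was 0.37 over the mean of its probe sets. The gate used these antigens, so the values check the labels only. Correlations over all genes ran from 0.898 to 0.980 within the Tie2-positive and from 0.969 to 0.983 within the Tie2-negative population, so the Tie2-positive arrays differed more among themselves. Of 12 measured endothelial marker genes 9 rose in the Tie2-positive cells, whereas 0 of 9 skeletal stroma genes rose or fell (limma, with 0 at an unadjusted p under 0.05). Red-cell and early B-cell transcripts were high in the Tie2-negative samples. No label states that the replicates were separate litters. The p-values therefore reflect only how far these samples scatter, and that scatter may be technical. The number of arrays limits the precision.

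All 3 mitochondrial genes, the storage gene and the export gene fell in the Tie2-positive cells, as did 1 of the 4 uptake genes, and the breakdown gene Hmox1 did not pass. Of the 10 genes, 6 fell (Slc11a2, Slc25a37, Slc25a38, Abcb10, Fth1 and Slc40a1), 0 rose and 4 did not pass, in limma at an adjusted p under 0.05. Among all 18193 genes tested, 2.53% fell and 4.86% rose, or 7.39% in all. In 9 of the 10 genes every Tie2-positive value lay below every Tie2-negative value, a pattern found in 23.9% of all genes, while the reverse, found in 15.2%, held for 0 of the 10. At an unadjusted p under 0.05 stood 8 of the 10, against 28.6% of all genes. The median change of the 10 was -2.13, against -0.11 over all genes, where a change is the Tie2-positive minus the Tie2-negative mean on the log2 scale (n = 3 each). Relative to that median of all genes, the 10 changes ran from -3.46 to 0.08. Over all 25 probe sets that the annotation gives to these genes, the Tie2-positive mean was the lower in 25 and the populations did not overlap in 22. The 10 genes were chosen for their roles in red cells and iron, with earlier results of these arrays known, and no test of the list was made. With Tie2-negative replicate 1 or 2 left out limma called 0 of the 10 and 0 of all genes (smallest adjusted p 0.0518 and 0.0607), with 8 of the 10 at an unadjusted p under 0.05 in each case. Without Tie2-negative replicate 3 it called 3 of the 10, namely Slc25a38, Abcb10 and Slc40a1.

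**Figure D1:**
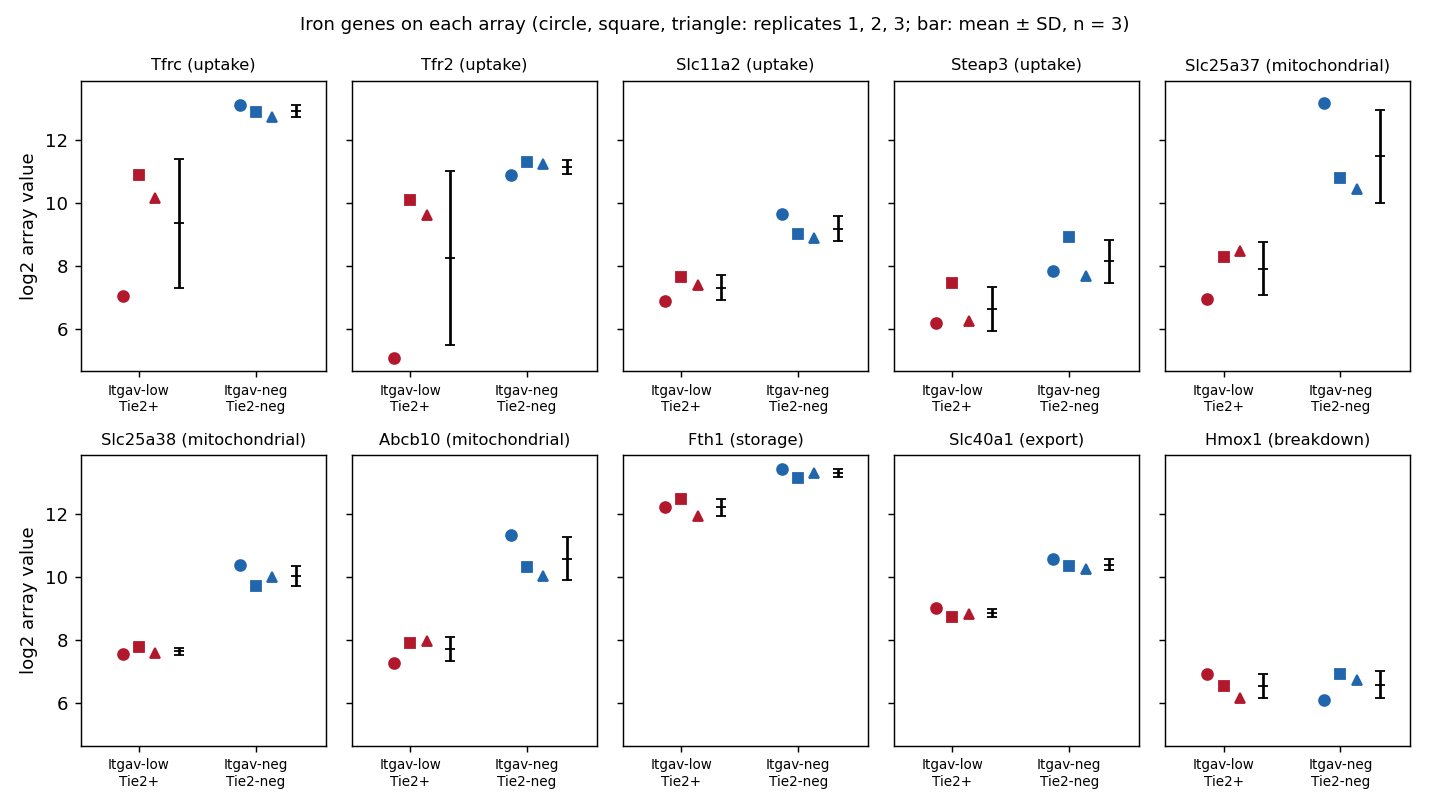
Log2 array value (y axis) of each of the 10 iron genes on each array, Tie2-positive samples left (red) and Tie2-negative right (blue); circles, squares and triangles are replicates 1, 2 and 3, and bars are mean ± SD (n = 3). In 9 genes the populations do not overlap; Hmox1 values of 6.17 to 6.94 and 6.11 to 6.92 overlap, and Tie2-positive replicate 1 lies far below the other two in Tfrc and Tfr2.

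The probe sets used for the transferrin receptors varied widely among the Tie2-positive arrays, and neither passed. Tfrc, the receptor that brings transferrin iron into most cells, had values of 7.02, 10.88 and 10.15 in Tie2-positive replicates 1, 2 and 3, against 13.11, 12.90 and 12.72 in the Tie2-negative samples. The populations were 1.84 apart at their closest, and Tie2-positive replicate 1 lay more than 3 log2 units under the other two. The means were 9.35 ± 2.05 and 12.91 ± 0.19 (SD, n = 3 each). The change of -3.56 ± 0.92 (SE) did not pass in limma (adjusted p = 0.0651). Without Tie2-positive replicate 1 it was -2.39 and passed (limma adjusted p = 0.00217). With Tie2-positive replicates 2 and 3 left out it was -5.88 (limma adjusted p = 7.91e-05), a fit in which the single array takes its spread from the Tie2-negative arrays.

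Tfrc has 5 further probe sets, of which 3 are quality controls of the array. In the fit of all probe sets, the other 2 fell, with log2 changes of -2.60 ± 0.40 and -2.175 ± 0.28 (SE, n = 3 each; limma adjusted p = 0.0193 and 0.0128). Their Tie2-positive values were closer together, 5.63, 6.26 and 6.07 in the first and 4.65, 4.78 and 4.67 in the second. The controls were left out of the tests. The control at the 3' end of the transcript averaged 5.63 ± 0.34 in the Tie2-positive and 7.80 ± 0.53 in the Tie2-negative samples (SD, n = 3 each). The control at the 5' end averaged 3.82 ± 0.06 and 5.19 ± 0.22 in the same order of populations. The difference between the 3' and the 5' control, a sign of RNA quality and amplification, was 1.48, 2.01 and 1.93 in the Tie2-positive samples, against 3.28, 2.06 and 2.49 in the Tie2-negative samples. The populations did not overlap in this difference but came close, at 2.01 in Tie2-positive and 2.06 in Tie2-negative replicate 2. Both controls measure Tfrc itself, and the 5' control was low in the Tie2-positive samples, at 3.77 to 3.89. The difference therefore cannot separate RNA quality from a low Tfrc level there. The part of RNA quality in the Tfrc difference was not tested. Over the mean of its 3 tested probe sets Tfrc passed, with a change of -2.78 (limma adjusted p = 0.0249). All 6 Tfrc probe sets thus read lower in every Tie2-positive array, while the call depended on the probe set.

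Tfr2, a second transferrin receptor that senses iron in liver and red-cell precursors, showed the same split. Its values were 5.07, 10.09 and 9.60 in Tie2-positive replicates 1, 2 and 3, against 10.89, 11.31 and 11.24 in the Tie2-negative samples. The change of -2.90 ± 1.24 (SE, n = 3 each) did not pass (limma adjusted p = 0.181), with an interval from -5.85 to 0.06 (95%). Tie2-positive replicates 2 and 3 were 1.06 and 1.55 under the Tie2-negative mean, and replicate 1 was 6.08 under it. Without Tie2-positive replicate 1 the change was -1.30 and passed (limma adjusted p = 0.0137). With Tie2-positive replicates 2 and 3 left out, which leaves 1 Tie2-positive array, the change was -6.08. The probe set carries the suffix x_at, used where probes can match several transcripts. The other Tfr2 probe set read 7.18, 9.17 and 8.47 in the Tie2-positive samples, against 9.77, 9.93 and 9.77 in the Tie2-negative samples, a change of -1.55 ± 0.48 (SE, limma adjusted p = 0.108 over all probe sets).

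Of 2 genes of endosomal release, Slc11a2 fell and Steap3 did not pass. Slc11a2, which moves ferrous iron out of the endosome, had values of 6.88, 7.65 and 7.38 in the Tie2-positive samples, against 9.64, 9.003 and 8.90 in the Tie2-negative samples. The populations did not overlap, and they spread over 0.77 and 0.74. Slc11a2 fell by 1.87 ± 0.31 on the log2 scale (SE, n = 3 each; limma adjusted p = 0.0211). Of its 4 probe sets 3 passed over all probe sets, and their changes ran from -1.999 to -0.65. Without Tie2-negative replicate 3 Slc11a2 did not pass (limma adjusted p = 0.0579). Steap3, the endosomal reductase, had values of 6.18, 7.44 and 6.25 in Tie2-positive replicates 1, 2 and 3, against 7.85, 8.93 and 7.67 in Tie2-negative replicates 1, 2 and 3. The populations lay only 0.22 apart, with replicate 2 the highest of each. Its change of -1.52 ± 0.47 (SE) did not pass (limma adjusted p = 0.0957). With Tie2-positive replicates 2 and 3 left out, which leaves 1 Tie2-positive array, the change was -1.96. Over the mean of its 3 probe sets the change of Steap3 was -0.80, and its other 2 probe sets overlapped between populations.

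**Figure D2:**
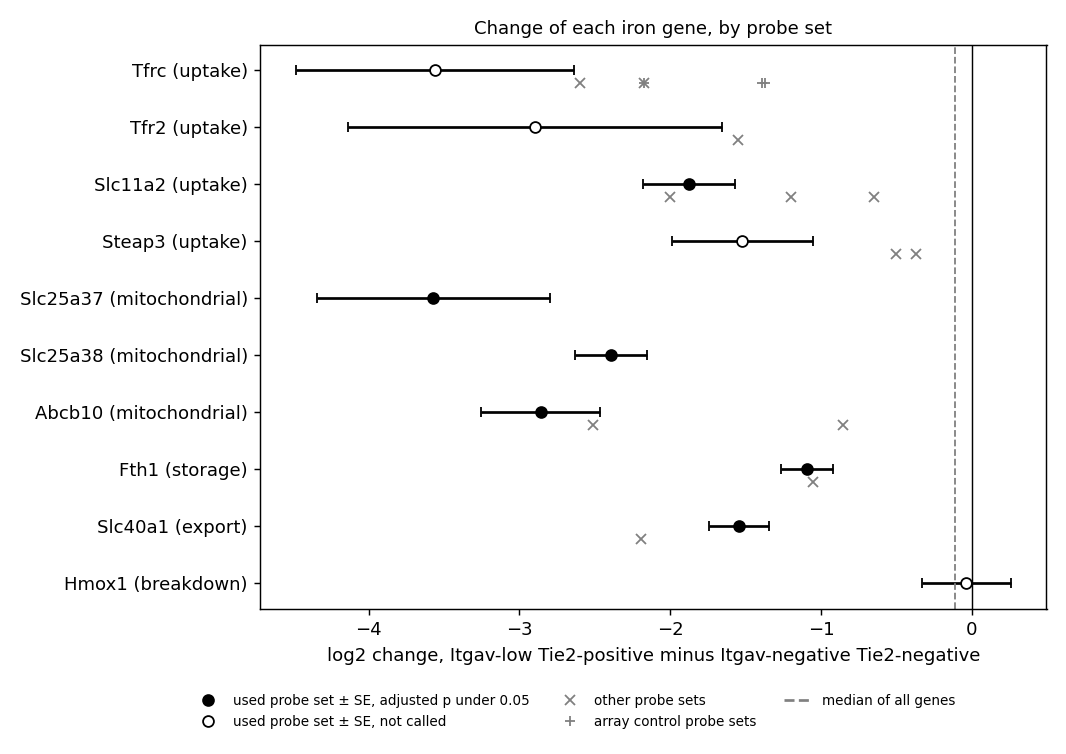
Log2 change, Tie2-positive minus Tie2-negative (x axis), of each gene; circles with SE bars are the probe sets used (n = 3 each; filled where the limma adjusted p was under 0.05), crosses the other probe sets, plus signs array controls, and the dashed line the median of all genes, -0.11. All 25 probe sets lie left of 0, from -3.57 for Slc25a37 to -0.035 for Hmox1.

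All 3 genes of mitochondrial delivery and haem assembly fell. Slc25a38, a carrier of the inner mitochondrial membrane that brings in glycine for haem synthesis and is mutated in a human sideroblastic anaemia, had values of 7.55, 7.78 and 7.59 in the Tie2-positive samples, against 10.38, 9.73 and 9.999 in the Tie2-negative samples. The Tie2-positive arrays agreed to within 0.23, and the populations were 1.95 apart at their closest. Slc25a38 fell by 2.39 ± 0.24 on the log2 scale (SE, n = 3 each; limma adjusted p = 0.0103), or 5.25-fold.

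Abcb10, an inner-membrane transporter that in mouse erythroid cells binds and stabilises mitoferrin 1, had values of 7.27, 7.91 and 7.99 in the Tie2-positive samples, against 11.35, 10.34 and 10.05 in the Tie2-negative samples. The populations did not overlap, with Tie2-negative replicate 1 the highest array. It fell by 2.86 ± 0.39 (SE, n = 3 each; limma adjusted p = 0.0143), and its other probe sets changed by -2.51 and -0.86. Slc25a37, the mitochondrial iron importer of red-cell precursors, had values of 6.94, 8.29 and 8.48 in the Tie2-positive samples, against 13.17, 10.79 and 10.45 in the Tie2-negative samples. Again Tie2-negative replicate 1 stood highest, here by more than 2 log2 units, and Tie2-positive replicate 1 lowest. Slc25a37 fell by 3.57 ± 0.77 (SE, n = 3 each; limma adjusted p = 0.0428) and has this single probe set. The call was lost without Tie2-negative replicate 3 (limma adjusted p = 0.0708) and without Tie2-positive replicate 2 or 3 (0.0946 and 0.0564). Without Tie2-negative replicate 1 the change was -2.72 (limma adjusted p = 0.0908).

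The storage gene Fth1 and the export gene Slc40a1 both fell. Fth1, the ferritin chain that oxidises iron for storage, had values of 12.24, 12.48 and 11.94 in the Tie2-positive samples, against 13.44, 13.17 and 13.32 in the Tie2-negative samples. The populations did not overlap, and each spread over less than 0.69, the gap between them. Fth1 fell by 1.09 ± 0.17 on the log2 scale, or 2.13-fold (SE, n = 3 each; limma adjusted p = 0.0197), and its other probe set fell by 1.05 ± 0.21. The call was lost without Tie2-negative replicate 3 (limma adjusted p = 0.0687). Slc40a1, which encodes ferroportin, had values of 9.02, 8.74 and 8.83 in the Tie2-positive samples, against 10.58, 10.35 and 10.28 in the Tie2-negative samples. Neither population spread over more than 0.31, and the gap between them was 1.26. Slc40a1 fell by 1.54 ± 0.20 (SE, n = 3 each; limma adjusted p = 0.0127), and its other probe set fell by 2.19 ± 0.26 (limma adjusted p = 0.0113 over all probe sets).

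The Hmox1 transcript was not distinguishable between the populations. Its values were 6.94, 6.54 and 6.17 in the Tie2-positive samples, against 6.11, 6.92 and 6.73 in the Tie2-negative samples. The populations overlapped almost fully, with means of 6.55 ± 0.38 and 6.59 ± 0.43 (SD, n = 3 each). The change was -0.035 ± 0.29 (SE, limma adjusted p = 0.945), with an interval from -0.73 to 0.66 (95%), and its sign turned with the values as deposited (0.04) or with arrays centred on their medians (0.08). The deposited values carry no detection calls, so whether it was above background was not analysed.

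The spread among the Tie2-positive arrays followed different lines in different members. In the probe sets used, Tfrc and Tfr2 ranged over 3.86 and 5.02 log2 units within the population, against 0.23 for Slc25a38 and 0.27 for Slc40a1. The spread depended on the probe set. In the same samples the other 2 tested Tfrc probe sets read 5.63 to 6.26 and 4.65 to 4.78. The other probe set of Tfr2 read 7.18 to 9.17 and that of Slc40a1 6.26 to 6.92. Klf1, the erythroid Krüppel-like factor, read 6.34, 10.42 and 9.04 in Tie2-positive replicates 1, 2 and 3, against a range of 12.07 to 12.35 in the Tie2-negative samples. Gata1, a factor of red-cell and platelet precursors, read 5.58, 9.09 and 9.80 in the Tie2-positive and 9.82 to 10.27 in the Tie2-negative samples. In both, replicate 1 was the lowest array by more than 2 log2 units. The other red-cell genes did not share 1 pattern. Slc4a1, the anion exchanger of the red-cell membrane, read 7.94, 10.02 and 4.60 in the Tie2-positive samples, against 13.44, 12.72 and 11.57 in the Tie2-negative samples, with replicate 3 the lowest. Epb42, a protein of the mature red-cell membrane, read 3.68, 4.32 and 3.34 in the Tie2-positive samples, against 11.08, 9.08 and 9.14 in the Tie2-negative samples, with replicate 3 again the lowest. These 4 genes were picked from the red-cell list after their values were seen. Over the 10 measured red-cell genes, the lowest Tie2-positive array was replicate 1 in 6 and replicate 3 in 4.

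Red-cell and early B-cell markers included falls in the Tie2-positive cells, while neutrophil and megakaryocyte markers did not. Of 10 measured red-cell genes 6 fell and 0 rose, with list medians of 5.85, 7.66 and 5.46 in Tie2-positive replicates 1, 2 and 3, against 11.95, 10.48 and 10.23 in Tie2-negative replicates 1, 2 and 3. The log2 of their summed level ran from 9.71 to 12.05 in the Tie2-positive and from 14.19 to 15.62 in the Tie2-negative samples. Of 7 early B-cell genes 4 fell and 0 rose, with summed levels of 9.18 to 9.57 against 11.18 to 13.57. Neutrophil and monocyte genes (9 measured, 0 called by limma and 0 at an unadjusted p under 0.05) summed to 9.31, 15.15 and 16.69 in Tie2-positive replicates 1, 2 and 3, against 9.68 to 12.15 in the Tie2-negative samples. Megakaryocyte genes (1 of 5 rose) summed to 9.93, 13.05 and 12.47 in Tie2-positive replicates 1, 2 and 3, against 8.99 to 9.16. Tie2-positive replicates 2 and 3 thus stood apart from replicate 1 in neutrophil and platelet transcripts, and no listed gene was at 0, since no deposited value is that low. The part of these other cells in the iron gene differences was not tested. In such bulk samples, fewer cells of a type and less RNA per cell cannot be told apart.

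Of 14 markers of macrophages, the cells in which Hmox1 and ferroportin recycle iron, 1 rose and 0 fell, with 3 at an unadjusted p under 0.05. Their median was 5.14, 5.07 and 5.52 in the Tie2-positive samples, against 5.32, 5.13 and 4.93 in the Tie2-negative samples. The gene that rose was Mrc1, a mannose receptor that sinusoidal endothelium also makes, with values of 10.998, 10.35 and 7.73 against 5.03, 4.57 and 4.81. With it, the log2 of the summed level of the list was 10.81 to 11.46 in the Tie2-positive samples, against 9.54 to 9.76. Tie2-positive replicate 3 stood above every other array in 3 general macrophage markers, none of which passed. Csf1r, the receptor of a macrophage growth factor, read 6.88, 7.33 and 9.61 in Tie2-positive replicates 1, 2 and 3, against 6.90, 7.47 and 7.36 in the Tie2-negative samples. Cd68, a lysosomal protein, read 4.54, 4.73 and 6.49 in the same replicates, against 4.11 to 4.57. Adgre1, the F4/80 antigen, read 7.05, 6.31 and 8.19, against 6.54 to 7.10. Mertk, a receptor for dying cells, lay above in all 3 Tie2-positive arrays, at 5.97 to 6.66 against 4.88 to 5.63, and did not pass (limma adjusted p = 0.0684). Spic, a factor of iron-recycling macrophages, read 4.40 to 5.02 in the Tie2-positive and 4.75 to 5.30 in the Tie2-negative samples. Of the 14 markers, 2 lay above without overlap (Mrc1 and Mertk) and 2 lay below. Those below were Siglec1, at 6.95, 6.53 and 6.50 against 7.30, 7.23 and 6.97, and Cd5l, at 4.77 to 4.81 against 4.93 to 5.17. Neither passed, and the median change of the list was -0.10. The macrophage genes named here other than Mrc1 were picked after their values were seen, and the part of macrophages in the iron gene values was not tested.

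**Figure D3:**
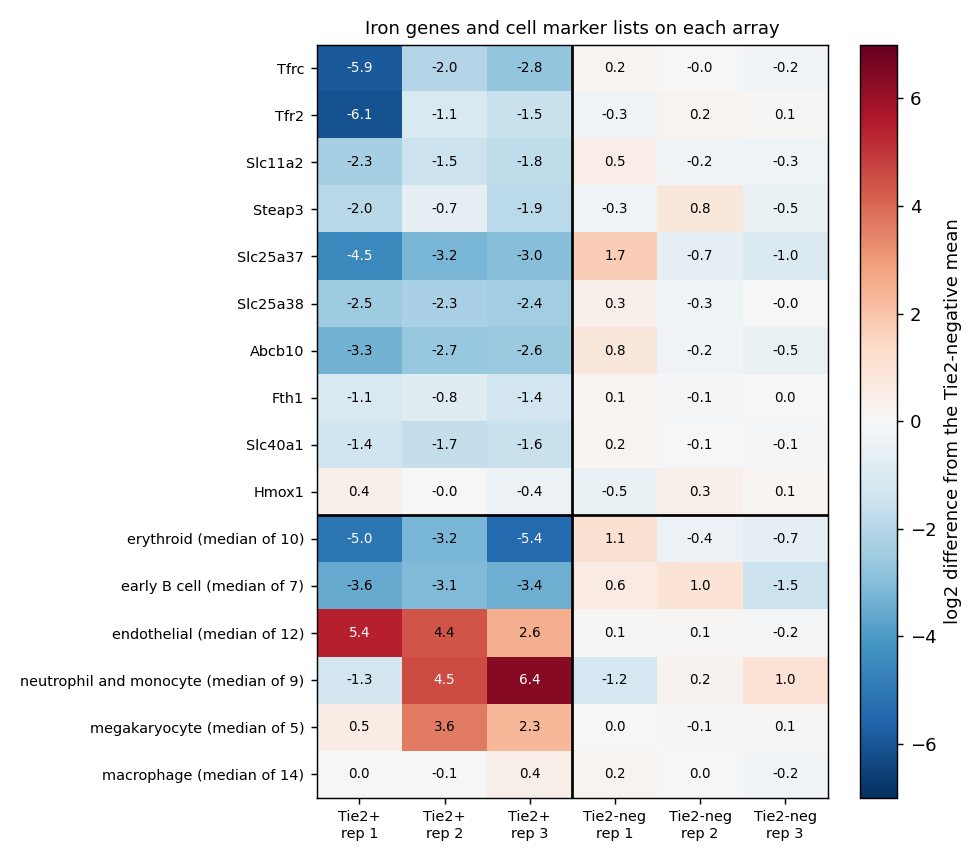
Difference of each array (columns, Tie2-positive left) from the Tie2-negative mean on the log2 scale, for the 10 iron genes and the median of each marker list (rows); red is higher and blue lower. Tie2-positive replicate 1 is lowest in Tfrc and Tfr2, red-cell medians are low in all 3 Tie2-positive arrays, and neutrophil medians are high in replicates 2 and 3.

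Other genes of iron and haem handling did not all move with the 10. Of 55 measured genes in 6 lists, 5 fell, 2 rose and 48 did not pass, against 2.53% and 4.86% of all genes. Their median change was -0.21. The mitochondrial list held 4 of the 5 falls, among 11 measured genes. Abcb6, a porphyrin transporter, had values of 7.28, 8.10 and 7.48 in the Tie2-positive samples, against 10.27, 9.78 and 9.61 in the Tie2-negative samples. It fell by 2.27 ± 0.30 on the log2 scale (SE, n = 3 each; limma adjusted p = 0.0136). Tmem14c, needed for porphyrin to enter the mitochondrial matrix, fell by 1.88 ± 0.28 (limma adjusted p = 0.0162), and Glrx5, a glutaredoxin of iron-sulphur cluster assembly, fell by 1.46 ± 0.30 (0.0382). The last of the 4 was Nfs1, the cysteine desulphurase of cluster assembly, at -1.15 ± 0.23 (SE, limma adjusted p = 0.0352), named after its value was seen. Iscu, the scaffold on which clusters form, and Slc25a28, the mitoferrin of other tissues, did not pass, with changes of -0.03 and -0.11.

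In haem breakdown past Hmox1, Blvrb, a reductase of biliverdin and flavin abundant in red cells, fell by 3.20 ± 0.45 on the log2 scale (SE, n = 3 each; limma adjusted p = 0.0149). Its values were 8.58, 9.39 and 7.88 in the Tie2-positive samples, against 12.47, 11.64 and 11.34 in the Tie2-negative samples. It was the only 1 of 11 genes in its list to pass. Hmox2, the constitutive haem oxygenase, read 10.66, 10.27 and 10.28 in the Tie2-positive samples, against 9.14, 9.75 and 9.497 in the Tie2-negative samples. The change of 0.94 ± 0.24 (SE) did not pass (limma adjusted p = 0.0625). Hmox2 was named after its value was seen.

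The 2 genes that rose act at the cell surface. Heph, a membrane ferroxidase that works beside ferroportin in iron export from the gut, had values of 8.98, 7.498 and 6.55 in Tie2-positive replicates 1, 2 and 3, against 3.65, 3.51 and 3.88 in the Tie2-negative samples. It rose by 3.99 ± 0.56 (SE, n = 3 each; limma adjusted p = 0.0147). Heph was the only 1 of 6 measured genes in the list of other iron or haem export to pass, while the export member Slc40a1 fell. Hfe, a class I-like protein that binds transferrin receptor 1 and is mutated in hereditary haemochromatosis, had values of 10.12, 8.11 and 7.54, against 4.85, 5.58 and 5.41. It rose by 3.31 ± 0.64 (SE; limma adjusted p = 0.0324), but its second probe set changed by 1.22 and did not pass (limma adjusted p = 0.118 over all probe sets), nor did the mean of both (2.27, limma adjusted p = 0.0504). In both genes Tie2-positive replicate 1 was highest and replicate 3 lowest, the order of the endothelial marker medians of 11.36, 10.33 and 8.47 in replicates 1, 2 and 3 against 5.75 to 6.02 in the Tie2-negative samples. The part of endothelial cells in these rises was not tested.

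Of 14 other uptake genes and 3 storage and chaperone genes none passed limma at an adjusted p under 0.05, with 5 and 0 at an unadjusted p under 0.05. Of the 14 uptake genes, 5 lay below without overlap and 0 above, against 23.9% and 15.2% of all genes. Each list is represented first by its gene of highest mean, which need not stand for the others. Snx3, a sorting nexin that recycles the transferrin receptor, changed by -0.21 ± 0.22 (SE, n = 3 each; limma adjusted p = 0.541), and Pcbp1, a chaperone that hands iron to ferritin, by 0.06 ± 0.15 (0.822). Ireb2 and Aco1, the iron regulatory proteins that control translation and decay of Tfrc and Fth1 transcripts, changed by -0.34 and -0.18 and did not pass. These 2 genes, Iscu and Slc25a28 were named after their values were seen. Without Tie2-negative replicate 1 or 2 none of these 55 genes passed. The calls of Tmem14c, Glrx5, Hfe and Heph were also lost without Tie2-negative replicate 3 (limma adjusted p between 0.0516 and 0.0928). That of Hfe was lost without Tie2-positive replicate 2 (limma adjusted p = 0.0701) and that of Glrx5 without Tie2-positive replicate 3 (0.0722). Whether Nfs1 kept its call without Tie2-negative replicate 3 or any Tie2-positive replicate was not recorded.

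**Figure D4:**
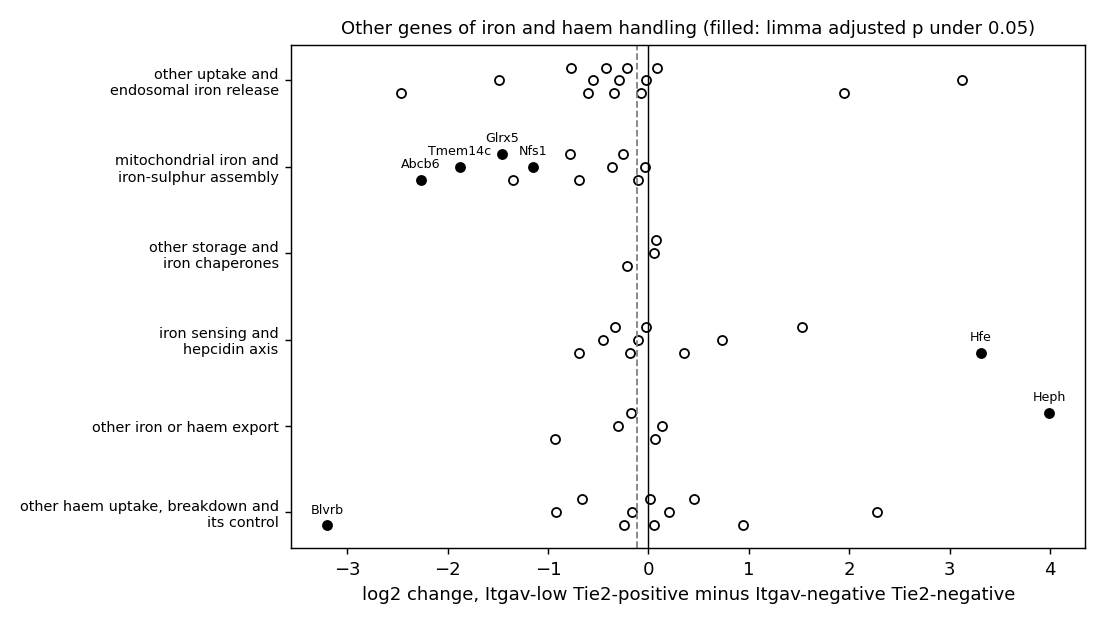
Log2 change, Tie2-positive minus Tie2-negative (x axis), of 55 further genes of iron and haem handling, by list; filled circles passed limma at an adjusted p under 0.05 (n = 3 each), and the dashed line is the median of all genes. The 5 falls and 2 rises are named, Heph at 3.99 being highest and Blvrb at -3.20 lowest.

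Some genes outside the pathway had array patterns close to those of single members. Likeness was the Pearson correlation over the 6 arrays, which share the population difference, among genes above the median level, and it is given as a description. Closest to Tfrc were Plk1, a kinase of cell division (0.999), Car2, the carbonic anhydrase of red cells (0.998), and Dym (0.998). These values hold for the Tfrc probe set used. The other tested Tfrc probe sets spread far less among the Tie2-positive arrays and were not correlated. Closest to Fth1 were Lyrm4, a partner of Nfs1 in cluster assembly (0.999), Bloc1s5 (0.998) and Cdk20 (0.996). For Slc40a1 they were Fcgbp, Hdhd5 and Srsf9, at 0.997, 0.996 and 0.996. For Hmox1 they were Txnl4b, Tigd2 and Rce1, at 0.973, 0.960 and 0.959, which is lower than for the other three.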

How the data were processed

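Expression was measured on 6 Affymetrix mouse whole-genome arrays, 3 per population. Per the labels' protocols, RNA was amplified in repeated rounds, labelled, hybridised and scanned with GCOS software. The authors deposited 1 log2 value per probe set and array. The log2 scale was inferred from their range, 2.56 to 14.78, and the authors' summarisation and normalization are not given in the sources used here.

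The 75th percentiles of the arrays differed by up to 0.27, so the values were quantile normalized, which also removes any overall difference between the populations. Of 45101 probe sets, 64 controls were left out of the tests. Names came from the platform's annotation: 34945 probe sets had 1 symbol, 932 several and 9160 were unnamed here, with no symbol changed through RefSeq gene IDs (34741 matched). Each of 18193 genes was represented by its probe set with the highest mean. The fit used limma 3.58.1 in R 4.3.3 (lmFit, eBayes with a mean trend, no covariates, two-sided, Benjamini-Hochberg over all genes, threshold 0.05). It was checked on simulated data with 1 spread per gene for both populations. That check does not cover the wider scatter among the Tie2-positive arrays. Other probe sets were tested in a fit of all probe sets.

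Genes named were every member, the gate genes Tek and Itgav and, per pathway list, up to 3 called genes with the largest change or else the gene of highest mean; others are said to be chosen after their values were seen, or are given as list examples. Members and lists were chosen with earlier results of these data known. The alternatives were other normalizations, a filter at the 40th percentile, other rules for probe sets, other eBayes settings, array weights, a replicate block and leaving out each array. No array pair held identical values. Arrays have no read depth; their number limits the precision.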

Additional observations from a re-analysis of the deposited data

How the results depend on the processing

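Over 17 alternatives, 1 of them (Tie2-positive replicates 2 and 3 left out together) chosen after seeing the data, 9 of the 10 members stayed lower in the Tie2-positive cells. Hmox1 took the other sign with the values as deposited (0.04), with median-centred arrays (0.08) and with those 2 replicates left out (0.35), and ran from -0.27 to 0.15 when 1 array was left out. Pcbp1, at 0.06, became -0.022 with array weights and ran from -0.072 to 0.12 when 1 array was left out. The count of all genes called, 1345, was 2246 with all probe sets tested, 4639 with array weights, 3637 with those 2 replicates left out and 0 with the replicate block (smallest limma adjusted p 0.0521, 5080 genes at an unadjusted p under 0.05). It ran from 0 to 2148 when 1 array was left out. Of the members, 0 were called under the replicate block, and between 0 and 8 when 1 array was left out. Calls are not counted for the fit with those 2 replicates left out, since it leaves 1 Tie2-positive array. Correlations of same-numbered deviations from the population means were 0.14, 0.01 and 0.19. For Tie2-positive replicates 1 and 3 the same-numbered array gave the highest correlation, while Tie2-positive replicate 2 correlated best with Tie2-negative replicate 3 (0.06). With so few arrays this cannot tell whether same-numbered samples share a litter or batch, so pairing by replicate number was not settled. Array values give no read depth, and without detection calls signal over background was not analysed.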
